A study of Mus musculus with 4 samples.

Results

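Non-collagen matrix genes were examined as a set of 48, in 5 groups by function: 16 elastic fibre genes, 8 laminin and nidogen genes, 9 proteoglycans, 8 genes for fibronectin and matricellular proteins, and 7 crosslinking and hydroxylating enzymes. Members were matched by gene symbol to probe sets that list 1 gene, and the probe set of highest mean signal stood for each gene. Of the 48, 44 were matched, out of 18193 genes on the array with such a probe set. Fbn1, Efemp2 and Spp1 were not matched to a probe set and are not analysed here, and Loxl2 lay only on 2 probe sets that list several genes and is not analysed either. Of the 44, 42 had a mean signal above 95.0, the median over non-control probe sets, and were tested among 12187 genes. Mfap5 and Aspn lay below that limit.

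The mice were C57BL/6 and all received carbon tetrachloride, a hepatotoxin that produces liver fibrosis, in 30 injections of 1 ml/kg. In the G-CSF group, recombinant human granulocyte colony-stimulating factor was given at 100 µg/kg over the last 7 days, and in the PBS group phosphate-buffered saline with 0.1% mouse serum albumin was given instead. The samples are labelled both as liver tissue and as cells from the bone marrow that had moved into it. Affymetrix mouse arrays, 4 in all and 2 per group, measured total RNA, and the sources used here do not say whether they came from separate animals, so the p-values measure the spread between these samples, which may be technical.

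The extracellular matrix outside the collagens gives tissue its elasticity, its basement membranes and its growth factor stores. Elastic fibres consist of an elastin core on a scaffold of fibrillin microfibrils, laminins and nidogens build basement membranes, and small leucine-rich proteoglycans bind to collagen fibrils and regulate their assembly. Lysyl oxidases crosslink collagen and elastin outside the cell, and lysyl and prolyl hydroxylases modify collagen chains inside it. In fibrotic liver most of this matrix is made by activated stellate cells and portal fibroblasts, while some members, such as fibronectin and versican, are also made by hepatocytes or leukocytes.

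The promoters of the 4 members with the largest differences between the groups are printed here, since these genes carry the comparison below. They are RefSeq windows of 300 bases on GRCm38.p6, from 250 bases before the transcription start to 50 after it, 5′ to 3′ on the strand of the gene. The windows lie at chr13:89742463-89742762, minus strand, for Vcan; chr2:180225810-180226109, minus strand, for Lama5; chr1:134037004-134037303, plus strand, for Fmod; and chr13:49607765-49608064, plus strand, for Ogn. Capitals mark matches on either strand to the TATA box, searched as TATAAA, the box named CCAAT for its letters, the GC box, searched as GGGCGG, the AP-1 site, searched as TGANTCA, or the Smad box, searched as CAGAC.
Vcan: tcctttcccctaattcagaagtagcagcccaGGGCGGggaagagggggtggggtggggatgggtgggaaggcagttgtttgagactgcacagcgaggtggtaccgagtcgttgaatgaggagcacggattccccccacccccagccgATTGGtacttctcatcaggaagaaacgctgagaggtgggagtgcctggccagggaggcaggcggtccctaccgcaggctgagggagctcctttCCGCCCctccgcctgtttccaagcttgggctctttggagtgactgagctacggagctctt
Lama5: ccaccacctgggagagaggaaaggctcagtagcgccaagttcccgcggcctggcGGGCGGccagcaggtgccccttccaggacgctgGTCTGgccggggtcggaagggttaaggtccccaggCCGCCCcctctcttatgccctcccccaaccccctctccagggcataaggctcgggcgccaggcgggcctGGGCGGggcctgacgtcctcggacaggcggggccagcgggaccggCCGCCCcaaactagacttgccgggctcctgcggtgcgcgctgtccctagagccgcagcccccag
Fmod: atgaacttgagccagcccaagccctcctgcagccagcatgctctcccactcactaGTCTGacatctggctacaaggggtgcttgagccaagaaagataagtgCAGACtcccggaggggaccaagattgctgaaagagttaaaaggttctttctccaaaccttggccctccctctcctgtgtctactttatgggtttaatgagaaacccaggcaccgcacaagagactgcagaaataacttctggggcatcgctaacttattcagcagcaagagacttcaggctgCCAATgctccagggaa
Ogn: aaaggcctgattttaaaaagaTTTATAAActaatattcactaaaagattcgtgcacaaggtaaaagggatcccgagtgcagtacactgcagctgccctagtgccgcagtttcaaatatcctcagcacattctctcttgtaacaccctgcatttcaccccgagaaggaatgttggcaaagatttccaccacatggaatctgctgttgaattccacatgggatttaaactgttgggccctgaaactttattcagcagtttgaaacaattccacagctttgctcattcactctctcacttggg
The Lama5 window held 4 GC boxes and 1 Smad box and had a GC content of 72.7%. The Vcan window held 2 GC boxes and 1 CCAAT box, at 61% GC. The Fmod window held 2 Smad boxes and 1 CCAAT box, at 51% GC. The Ogn window had 42.3% GC and 2 TATAAA matches, which overlap each other on opposite strands. The windows of these 4 genes had none of the 5 motifs present in all of them. Of the members, 31 had a window in the table, 42 windows in all. The GC box was present in 57.1% of member windows and 35.7% of all 32851 windows, and the TATA box in 21.4% and 13.6%. The Smad box was present in 61.9% of member windows against 49.6%, the CCAAT box in 33.3% against 37.4%, and AP-1 in 4.76% against 7.81%. Several windows belong to the same gene, and the GC content was 57.8% over member windows and 53.8% over all windows.

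The arrays differed in ways that bear on every value below. PBS replicate 1 stood apart, with a Pearson correlation of 0.81 to 0.84 with the other arrays over the tested genes, and the standard deviation (SD) between replicates was 0.82 with PBS and 0.29 with G-CSF on the log2 scale. The summed signal of 13 measured T cell markers was 33200 on PBS replicate 1 and 4285 to 6247 on the other arrays, and that of 14 neutrophil markers was 26645 and 8885 on PBS replicates 1 and 2 against 278684 and 242196 on G-CSF replicates 1 and 2. The 14 stellate cell and fibroblast markers that are on no other marker list summed to 19252 on PBS replicate 1, 35997 on PBS replicate 2, and 36778 and 43054 on the G-CSF arrays. Their defining genes Pdgfrb (3572, 5632, 5359 and 6481, in the order PBS replicates 1 and 2, G-CSF replicates 1 and 2) and Lrat (607, 1858, 1185 and 975) were present on all arrays, as was the leukocyte gene Ptprc (31265, 8322, 14510.0 and 12991). Hepatocyte markers summed to 222566 and 387780 on the PBS arrays against 326294 and 316329 on the G-CSF arrays, so hepatocyte RNA was present on all arrays. Signal of the 3′ control probe set over that of its 5′ partner, a ratio that rises where RNA is degraded or its copying falls short, was 15.7, 14.8, 20.2 and 19.1 for Gapdh and 11.2, 9.88, 12.6 and 13.7 for Actb in the same order. For each gene the 2 G-CSF arrays had the higher ratios, and the part of this sign of RNA quality in the differences between the groups was not tested. A limit for background, the highest signal among 27 control probe sets for bacterial sequences that read at the low end of every array, was 106, 94.6, 86.4 and 63.0 in the same order.

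The question was whether these matrix genes differed between G-CSF and PBS samples. Vcan, Lama5, Fmod, Ogn, Fbln5 and Mfap4 were at least 2-fold higher with G-CSF with no overlap between the groups, and no member was lower by that measure. These 6 of 42 compare with 4.04% of all tested genes that were higher and 1.52% that were lower by the same rule. None of the 42 passed the test of limma, a linear model with moderated variance, after Benjamini-Hochberg adjustment over all tested genes (smallest adjusted p = 0.422), as was so for all 12187 genes (0% called). At an unadjusted limma p below 0.05 there were 5 members, all higher, where 3.13% of all genes were higher and 0.386% lower. Array weights and the replicate block also gave 0 members past the adjusted threshold. Without PBS replicate 1, 2 members passed, Lama5 and Vcan, both higher (2.78% of all genes were called higher and 1.45% lower), and for Lama5 that call rests on PBS replicate 2 alone, where its signal lay below background. Without PBS replicate 2, 22 passed as higher and Fbln1 as lower (22.6% and 15.9% of all genes). For 1 gene, an exact permutation test on these 4 arrays cannot give a two-sided p below 0.333.

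**Figure D1:**
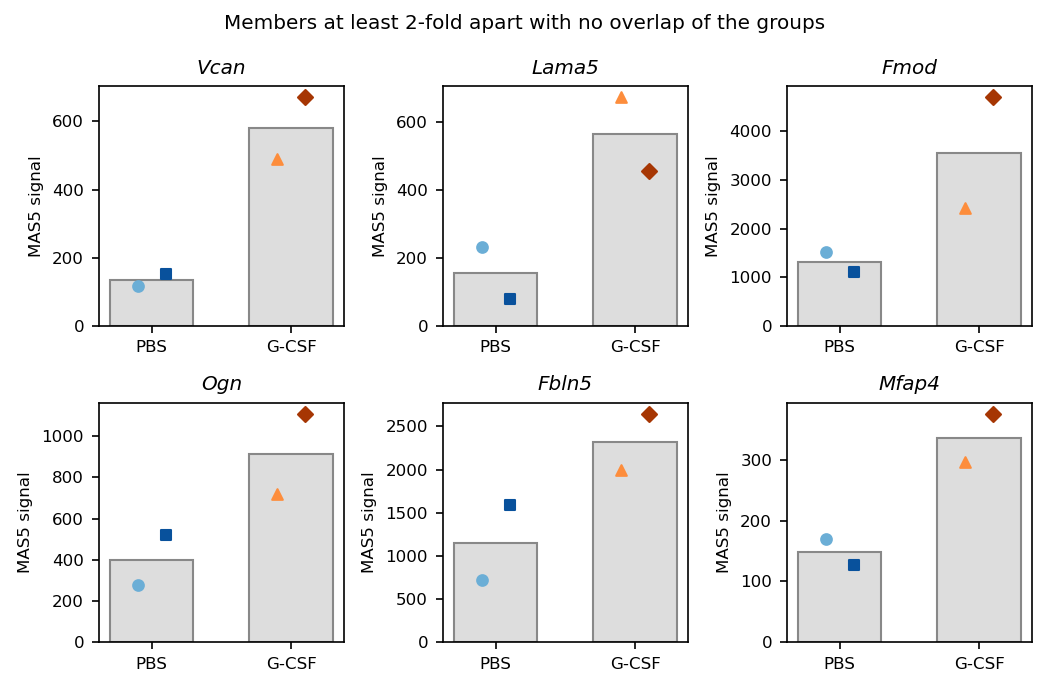
MAS5 signal (linear axis from 0) of the 6 members at least 2-fold apart with no overlap, by group. Points are single arrays (circle and square for PBS replicates 1 and 2, triangle and diamond for G-CSF replicates 1 and 2) and bars are the means of 2 arrays. Both G-CSF points lie above both PBS points in each panel, and the PBS points of Lama5 (233 and 79.1) and Fbln5 (718 and 1589) lie far apart.

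The G-CSF mean was above the PBS mean for 38 of 42 members, against 55.9% of all tested genes. The median difference was 0.44, against 0.07 over all genes. All differences and folds here are given on the log2(signal + 23) scale, so folds are smaller than the ratios of the signals. PBS replicate 1 was the lowest of the 4 arrays for 32 of the 42, against 47% of all genes, and PBS replicate 2 was the highest for 14 of 42, against 28.4%. PBS replicate 2 was at least 2-fold above PBS replicate 1 for 15 of 42 members, against 20% of all genes. The median difference was 0.90 from PBS replicate 1 and 0.05 from PBS replicate 2, and from PBS replicate 2 alone the G-CSF mean was higher for 22 of 42, against 50.1% of all genes. For 28 of 42 members the gap between the PBS arrays was larger than the difference between the groups, as for 76.3% of all genes. When each array was centred on the 14 stellate cell and fibroblast markers, the median over the members was −0.09, and Vcan alone was at least 2-fold apart with no overlap. In such bulk RNA, fewer matrix-producing cells and less matrix RNA per cell cannot be told apart.

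**Figure D2:**
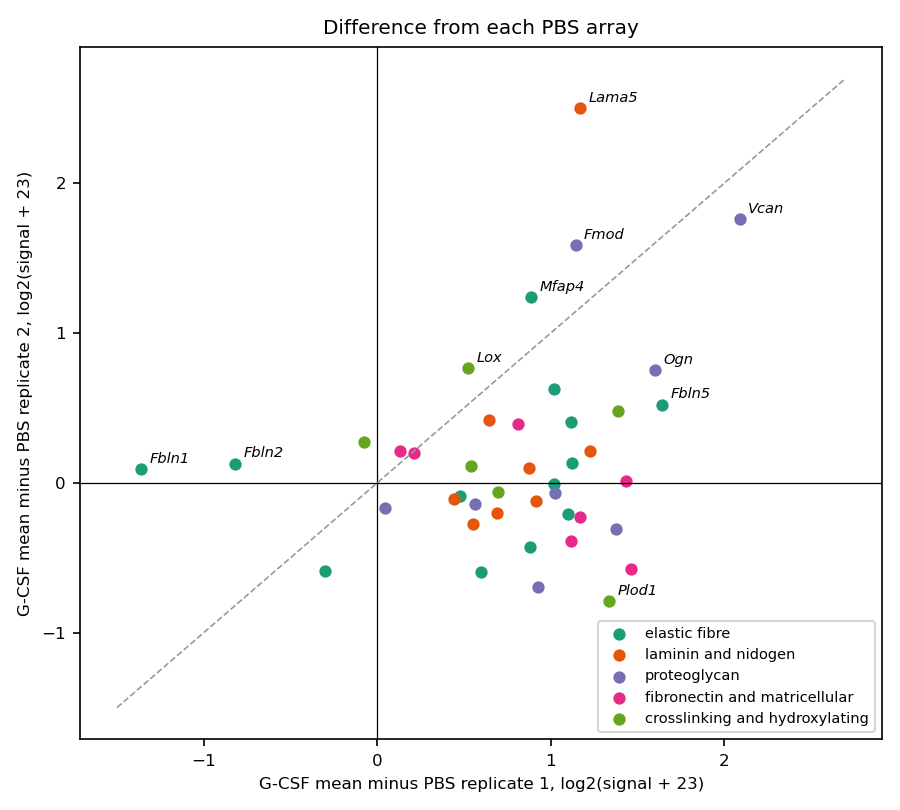
Difference of the G-CSF mean from PBS replicate 1 (horizontal axis) and from PBS replicate 2 (vertical axis), in log2(signal + 23), for the 42 tested members coloured by group. The dashed line marks equal differences. Most points lie right of 0 but scatter around 0 vertically, whereas Vcan, Lama5, Fmod and Mfap4 lie well above 0 on both axes, Lama5 with a PBS replicate 2 signal below background.

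Proteoglycans held 3 of the 6 separated members, of 8 tested, where 4.04% of all tested genes were higher by that rule. Their median difference was 0.50. From PBS replicate 2 alone it was −0.10, with 3 of 8 positive. Vcan, which encodes the large hyaluronan-binding proteoglycan versican, gave 117 and 153 on the PBS arrays against 491 and 670.1 on the G-CSF arrays. Both G-CSF arrays were thus above both PBS arrays, which were close to each other and little above background. The difference was 1.93 ± 0.37 (the SE, or standard error, from the model with n = 2 arrays a group), or 3.80-fold (limma adjusted p = 0.422), and it was 2.09 from PBS replicate 1 and 1.76 from PBS replicate 2. A second Vcan probe set passed the filter only through its G-CSF signals (65.9 and 74.3 against 119 and 129). Both its PBS signals lay below background, so no difference is given for it. Among 10 tested monocyte and macrophage markers, 2 were higher by 2-fold or more without overlap, against 4.04% of all tested genes. They were the monocyte receptor Ccr2 and the monocyte transglutaminase F13a1, the latter below background on PBS replicate 1 (48.9). The marker list had a median difference of 0.37, with 8 of 10 positive. From PBS replicate 2 alone its median was −0.21, with 4 of 10 positive. The summed signal of that list was 24187 and 55679 on the PBS arrays against 48369 and 47932 on the G-CSF arrays, and the part of these cells in the Vcan result was not tested.

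Fmod, fibromodulin, a small leucine-rich proteoglycan that binds collagen fibrils, gave 1514 and 1109 on the PBS arrays against 2419.6 and 4699.8 on the G-CSF arrays. Its lowest signal was on PBS replicate 2, unlike most members, and its G-CSF arrays differed from each other by 0.95. The difference was 1.36 ± 0.45 (limma adjusted p = 0.988), with 1.14 from PBS replicate 1 and 1.59 from PBS replicate 2. All 6 Fmod probe sets were at least 2-fold apart with no overlap, with differences of 1.04 to 1.36, although probe sets of 1 gene can share target sequence and are not replicates. Fmod lay under 2-fold (0.83) when the arrays were centred on stellate cell and fibroblast markers. Acta2, the smooth muscle actin of activated stellate cells and the only one of those 14 markers at least 2-fold apart with no overlap, was lowest on PBS replicate 2 (5164 and 3200.3 against 8941 and 10426), whereas 10 of the 14 were lowest on PBS replicate 1.

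Ogn, osteoglycin or mimecan, gave 279 and 519 on the PBS arrays against 718 and 1106 on the G-CSF arrays. The groups did not overlap, but PBS replicate 2 was nearer to the G-CSF arrays than PBS replicate 1 was. The difference was 1.18 ± 0.45 (limma adjusted p = 0.988), with 1.60 and 0.75 from PBS replicates 1 and 2. Aspn, asporin, is separated from Ogn by 1 protein-coding gene on chromosome 13, and gave 33.9 and 27.4 on the PBS arrays against 31.4 and 69.7 on the G-CSF arrays. It was above background on 1 array only, G-CSF replicate 2.

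**Figure D3:**
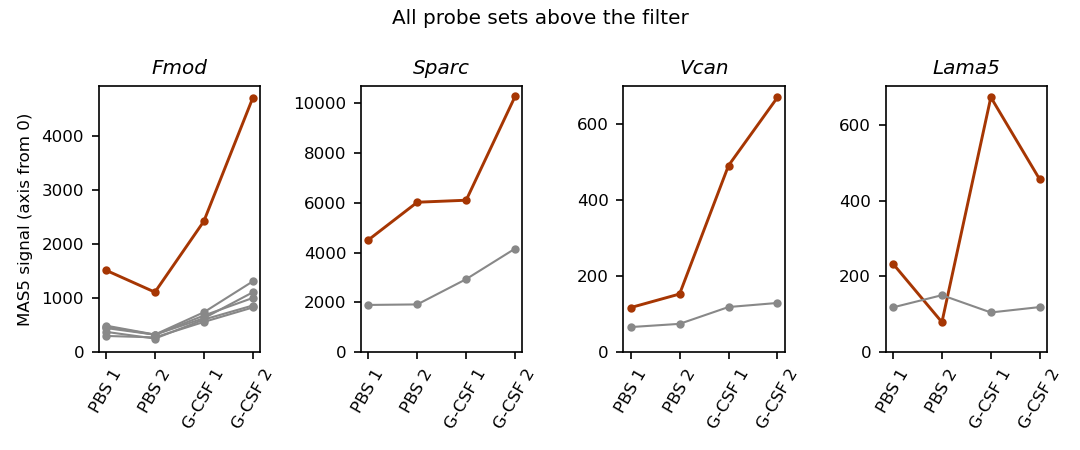
MAS5 signal (linear axis from 0) on each array of every probe set above the filter for Fmod, Sparc, Vcan and Lama5. Each line is 1 probe set and the coloured line is the one with the highest mean signal, used for the gene. All 6 Fmod lines, and both lines of Sparc and of Vcan, are higher on both G-CSF arrays, whereas the second Lama5 line (118, 150.5, 105 and 119) is not. The PBS points of the lower Vcan line (65.9 and 74.3) and 1 of the upper Lama5 line (79.1) lie below background.

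Dcn, Lum, Bgn and Prelp were each lowest on PBS replicate 1, and Hspg2 was not. Dcn, decorin, which binds collagen and TGF-beta, gave 5628 and 18161 on the PBS arrays against 14461 and 14834 on the G-CSF arrays. Its neighbour on chromosome 10, Lum, lumican, gave 4301 and 13283 on the PBS arrays against 10058 and 6701 on the G-CSF arrays. For both genes PBS replicate 2 was the highest array and PBS replicate 1 the lowest, 3.22-fold apart for Dcn and 3.08-fold for Lum, so the G-CSF arrays lay between them. The difference between the groups was 0.53 ± 0.59 for Dcn (limma adjusted p = 0.988), and it was −0.31 from PBS replicate 2 alone. Bgn, biglycan, a close relative of decorin, gave 18342 and 29862 on the PBS arrays against 27284 and 26927 on the G-CSF arrays (difference 0.21 ± 0.33, limma adjusted p = 0.988, and −0.14 from PBS replicate 2). Prelp, a proteoglycan that anchors basement membranes and the neighbour of Fmod on chromosome 1, gave 1612 and 3465 on the PBS arrays against 2928 and 3718 on the G-CSF arrays. Prelp thus had its low value on PBS replicate 1, whereas Fmod beside it was lowest on PBS replicate 2. Hspg2, perlecan, the heparan sulfate proteoglycan of basement membranes, gave 1215 and 1412 on the PBS arrays against 1404 and 1124 on the G-CSF arrays, a range within which the groups overlapped. Second probe sets above the filter gave other values for 2 of these genes. That of Hspg2 had a difference of 0.67 with overlapping groups (35.4 and 169.9 against 95.1 and 218.5), and that of Prelp had 0.81 without overlap (103 and 244 against 262 and 341). In both, PBS replicate 1 lay below background, and the differences from PBS replicate 2 alone were −0.19 and 0.27.

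**Figure D4:**
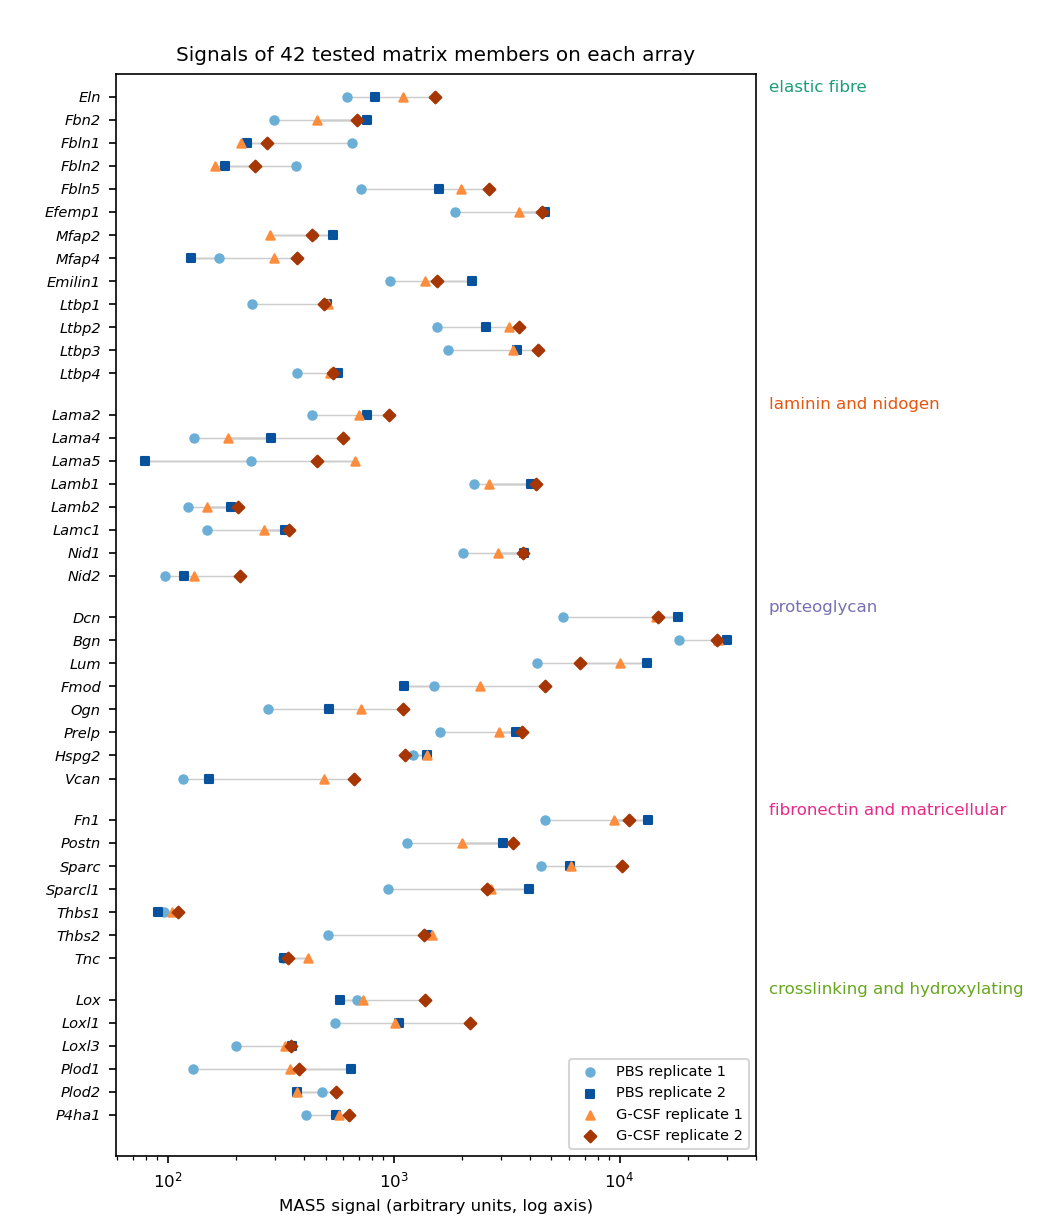
MAS5 signal (log axis) of the 42 tested members on each of the 4 arrays, grouped by function, with a line joining the arrays of 1 gene. PBS replicate 1 (pale circles) is the leftmost point for 32 members, and PBS replicate 2 (dark squares) is the rightmost for 14.

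Laminins and nidogens had a median difference of 0.44 over 8 tested genes, all with a G-CSF mean above the PBS mean, but the median was −0.0034 from PBS replicate 2 alone. Lama5, the laminin alpha 5 chain of mature vascular and epithelial basement membranes, gave 233 and 79.1 on the PBS arrays against 674 and 456 on the G-CSF arrays. Both G-CSF arrays were above both PBS arrays, and PBS replicate 2 lay below background. The fitted difference was 1.84 ± 0.55 (limma adjusted p = 0.988), and it was 1.17 from PBS replicate 1 alone. No fold and no difference from PBS replicate 2 are given, since the signal there was not above background and the fitted value includes it. A second Lama5 probe set above the filter gave 118 and 150.5 on the PBS arrays against 105 and 119 on the G-CSF arrays, a difference of −0.22, so the Lama5 result rests on 1 of 2 probe sets.

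The remaining basement membrane genes did not reach 2-fold between the groups. Lamb1, the beta 1 chain, gave 2278 and 4070.3 on the PBS arrays against 2639.6 and 4271 on the G-CSF arrays (difference 0.14 ± 0.46, limma adjusted p = 0.991). A second Lamb1 probe set above the filter separated the groups (80.7 and 272 against 309 and 295, difference 0.89), with PBS replicate 1 below background and a difference of 0.14 from PBS replicate 2 alone. Nid1, nidogen 1, which links laminin to collagen IV, gave 2034 and 3794 on the PBS arrays against 2899 and 3752 on the G-CSF arrays (difference 0.25 ± 0.43, limma adjusted p = 0.988). In the probe sets used for Lamb1 and Nid1 the groups overlapped, and each gene was lowest on PBS replicate 1. Lamc1, the gamma 1 chain shared by most laminins, gave 149.9 and 331 on the PBS arrays against 266 and 345 on the G-CSF arrays. Lamb2, the beta 2 chain, gave 123 and 191 on the PBS arrays against 149 and 205 on the G-CSF arrays. Lama2, the alpha 2 chain, gave 437 and 765 on the PBS arrays against 706 and 957 on the G-CSF arrays. These 3 chains shared the low value on PBS replicate 1 and overlapped between the groups. Lama4, the alpha 4 chain of vessel basement membranes, gave 130.3 and 287 on the PBS arrays against 185 and 598 on the G-CSF arrays, so its G-CSF arrays lay on both sides of PBS replicate 2. Nid2, nidogen 2, gave 97.7 and 118 on the PBS arrays against 131 and 209.7 on the G-CSF arrays. Its groups did not overlap, but the difference was 0.53 ± 0.43, and PBS replicate 1 lay below background.

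Elastic fibre genes had a median difference of 0.45 over 13 tested members (0.09 from PBS replicate 2 alone), with 10 positive and 3 negative. Fbln5, fibulin 5, which organises elastin on microfibrils, gave 718 and 1589 on the PBS arrays against 1990.0 and 2644 on the G-CSF arrays. The difference was 1.08 ± 0.49 (limma adjusted p = 0.988), with 1.64 from PBS replicate 1 and 0.52 from PBS replicate 2. PBS replicate 2 alone was thus under 2-fold from the G-CSF mean. Mfap4, a microfibril-associated protein, gave 169 and 128 on the PBS arrays against 296 and 375 on the G-CSF arrays, with the PBS arrays close to each other. The difference was 1.06 ± 0.37 (limma adjusted p = 0.988), with 0.89 and 1.24 from PBS replicates 1 and 2. Eln, elastin itself, gave 625 and 829.7 on the PBS arrays against 1098 and 1518 on the G-CSF arrays, so the groups did not overlap, at a difference of 0.82 ± 0.37 (limma adjusted p = 0.988).

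The latent TGF-beta binding proteins hold inactive TGF-beta in the matrix. Ltbp2, the member of this family that does not itself bind latent TGF-beta, gave 1558 and 2557 on the PBS arrays against 3239 and 3579 on the G-CSF arrays. Ltbp3 gave 1749 and 3502 on the PBS arrays against 3386 and 4351 on the G-CSF arrays (difference 0.63 ± 0.45, limma adjusted p = 0.988, and 0.13 from PBS replicate 2). A second Ltbp3 probe set above the filter gave 206 and 615 against 529 and 501. Its difference was 0.49, and −0.25 from PBS replicate 2 alone. Of the 4 family members, Ltbp2 was the only one whose groups did not overlap. Ltbp1 gave 236 and 505 on the PBS arrays against 515 and 492 on the G-CSF arrays. Ltbp4 gave 376 and 567 on the PBS arrays against 525 and 538 on the G-CSF arrays. In Ltbp1 and Ltbp4 the G-CSF arrays were close to PBS replicate 2 and above PBS replicate 1.

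Efemp1, fibulin 3, gave 1869 and 4674 on the PBS arrays against 3598 and 4538 on the G-CSF arrays (difference 0.45 ± 0.52, limma adjusted p = 0.988, and −0.21 from PBS replicate 2). Emilin1, an elastin-associated glycoprotein, gave 960.3 and 2232 on the PBS arrays against 1381 and 1558 on the G-CSF arrays. Fbn2, fibrillin 2, a microfibril component, gave 296 and 765 on the PBS arrays against 457 and 691 on the G-CSF arrays. In these 3 genes both G-CSF arrays lay between the PBS arrays. Mfap2, another microfibril protein, gave 439 and 540.3 on the PBS arrays against 284 and 435 on the G-CSF arrays (difference −0.44 ± 0.37). By the probe sets used, it was the only tested member whose groups separated with G-CSF lower, as did 12.1% of all genes. A second Mfap2 probe set above the filter gave 0.50 with overlapping groups and PBS replicate 1 (46.3) below background. From PBS replicate 2 alone that probe set gave −0.63, near the −0.59 of the probe set used.

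Fbln1 and Fbln2 were the only members highest on PBS replicate 1, where 33.7% of all tested genes were highest. Fbln1, fibulin 1, gave 655 and 225 on the PBS arrays against 211 and 276 on the G-CSF arrays. Fbln2, fibulin 2, gave 369 and 180.4 on the PBS arrays against 163 and 244 on the G-CSF arrays. In the probe sets used for both genes, PBS replicate 2 lay between the G-CSF arrays. All 3 Fbln1 probe sets above the filter were highest on PBS replicate 1, the others at 318 and 199 there and at 87.8 to 120 on the other arrays. The one at 318 separated the groups with G-CSF lower (318 and 100.6 against 90.6 and 98.7). Its difference was −0.81, and −0.07 from PBS replicate 2 alone. PBS replicate 1 was also the array with the high T cell marker signal, for example 2570.3 for Cd247 against 78.5 to 104 elsewhere, and the part of T cells in the fibulin values was not tested. Mfap5, below the filter, had signals of 5.97 to 62.9 and was not above background on any array.

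Fibronectin and the matricellular proteins, which modulate cell-matrix contact more than they build structure, had a median difference of 0.44 over 7 tested genes, and 0.02 from PBS replicate 2 alone. Their gap between the PBS arrays was wide, with a median of 1.39 between PBS replicate 2 and PBS replicate 1. Fn1, fibronectin, gave 4699 and 13388 on the PBS arrays against 9468 and 11057 on the G-CSF arrays (difference 0.37 ± 0.55, limma adjusted p = 0.988, and −0.39 from PBS replicate 2). Postn, periostin, gave 1149 and 3052 on the PBS arrays against 2008 and 3385 on the G-CSF arrays. Sparcl1, a SPARC relative of vessel walls, gave 947 and 3959 on the PBS arrays against 2699 and 2599 on the G-CSF arrays, a 4.10-fold gap within the PBS group. Thbs2, thrombospondin 2, gave 512 and 1407 on the PBS arrays against 1478 and 1369 on the G-CSF arrays. Of these 4 genes, none had groups that did not overlap, and each was lowest on PBS replicate 1.

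Sparc, osteonectin, a collagen-binding matricellular protein, gave 4505 and 6019.6 on the PBS arrays against 6100.3 and 10269 on the G-CSF arrays (difference 0.60 ± 0.40, limma adjusted p = 0.988, and 0.39 from PBS replicate 2). The groups did not overlap, though PBS replicate 2 and G-CSF replicate 1 were nearly equal. The second Sparc probe set separated them more widely, with 1894 and 1915 against 2930.4 and 4156 (difference 0.87, and 0.86 from PBS replicate 2 alone). Tnc, tenascin C, which appears in injured tissue, gave 324 and 328 on the PBS arrays against 419.8 and 342 on the G-CSF arrays. Thbs1, thrombospondin 1, an activator of latent TGF-beta carried by platelets, gave 96.7 and 90.3 on the PBS arrays against 105 and 111 on the G-CSF arrays. Neither PBS array was above background for Thbs1, so no fold is given.

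The enzymes that crosslink and hydroxylate the matrix had a median difference of 0.32 over 6 tested genes, all with a G-CSF mean above the PBS mean (0.19 from PBS replicate 2 alone). Loxl1, a lysyl oxidase-like enzyme that acts on elastin, gave 553 and 1058 on the PBS arrays against 1016 and 2172 on the G-CSF arrays (difference 0.94 ± 0.54, limma, adjusted p = 0.988). Its groups overlapped slightly, and G-CSF replicate 2 stood well above the other arrays. Lox, lysyl oxidase, gave 691 and 582 on the PBS arrays against 729 and 1378 on the G-CSF arrays (difference 0.64 ± 0.43, limma adjusted p = 0.988, and 0.76 from PBS replicate 2). The Lox groups did not overlap, and again G-CSF replicate 2 was the highest. Loxl3, another enzyme of this family, gave 201 and 356 on the PBS arrays against 332 and 350.4 on the G-CSF arrays. Plod1, a lysyl hydroxylase, gave 129.7 and 645 on the PBS arrays against 346 and 381 on the G-CSF arrays, a 4.38-fold gap within the PBS group. Plod2, the lysyl hydroxylase that modifies collagen telopeptides, gave 482 and 374 on the PBS arrays against 375 and 555 on the G-CSF arrays. The groups of Loxl3, Plod1 and Plod2 overlapped. P4ha1, a prolyl hydroxylase subunit needed for stable collagen helices and not itself a crosslinker, gave 408 and 556 on the PBS arrays against 574 and 636 on the G-CSF arrays, a separation of the groups with a difference of 0.33 ± 0.34.

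Across the 5 groups, 14 of 42 members had higher signals on both G-CSF arrays than on both PBS arrays, against 18.6% of all tested genes, and 1 had lower ones, against 12.1%. The medians of the 5 groups, 0.32 to 0.50, stayed positive after quantile normalization or median centring, and all negative (−0.21 to −0.03) after centring on the stellate cell and fibroblast markers. Other matrix genes were followed in lists of their own. All 16 collagen chains tested had a G-CSF mean above the PBS mean (55.9% of all tested genes), with a median of 0.45. From PBS replicate 2 alone, 14 of 16 were higher (50.1% of all tested genes), with a median of 0.34 against 0.05 for the members. Of the 16, 9 had higher signals on both G-CSF arrays than on both PBS arrays (18.6% of all tested genes). Col1a2, a chain of type I collagen, gave 10310.1 and 10937 on the PBS arrays against 13246 and 18396 on the G-CSF arrays. The PBS arrays were nearly equal for Col1a2, unlike for Dcn or Fn1. Whether the members and the collagen chains differed was not tested. Of 11 other crosslinking and modifying enzymes tested, 0 were at least 2-fold apart with no overlap, and their median was 0.32, or −0.17 from PBS replicate 2 alone. Pcolce, which promotes procollagen processing, gave 1999.8 and 3860.3 on the PBS arrays against 3905 and 7143 on the G-CSF arrays. None of the genes in these lists passed the adjusted limma threshold (smallest adjusted p = 0.988).

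**Figure D5:**
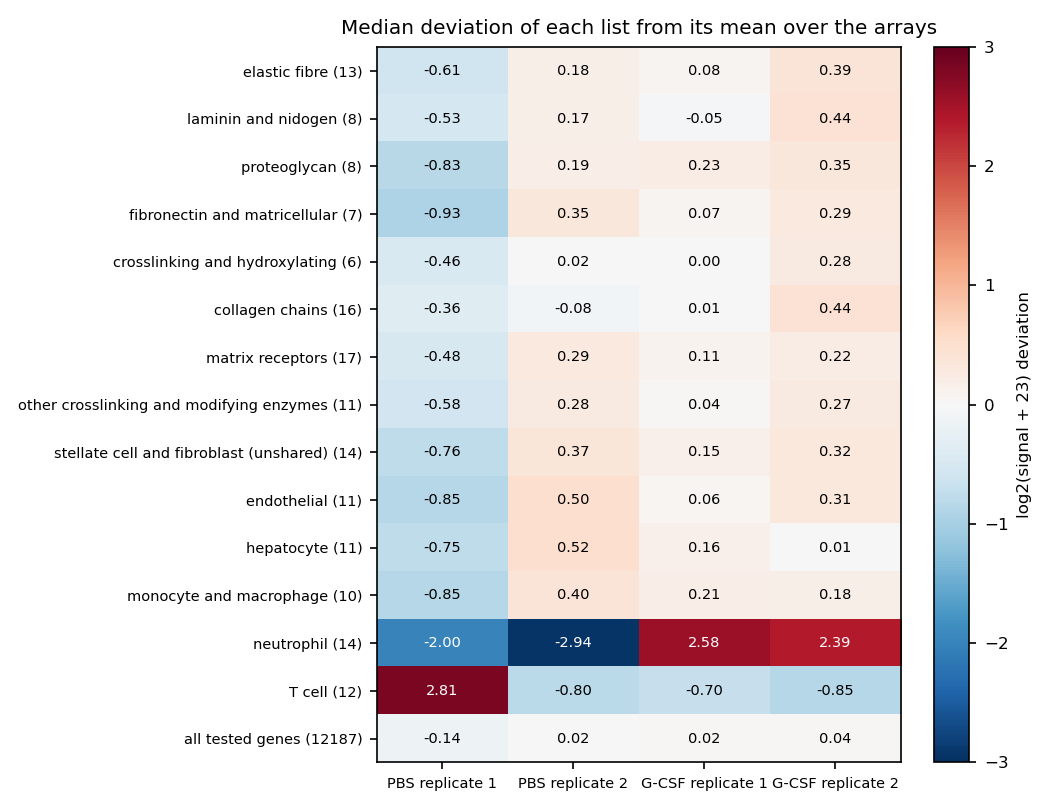
Median deviation of each gene list from the mean of its genes over the 4 arrays, in log2(signal + 23), with the number of tested genes in brackets. The 5 member groups are −0.93 to −0.46 on PBS replicate 1 and −0.05 to 0.44 on the other arrays. The stellate cell and fibroblast markers are also lowest on PBS replicate 1 (−0.76). So are the endothelial (−0.85), hepatocyte (−0.75), and monocyte and macrophage (−0.85) lists. The T cell list is highest there (2.81), and the neutrophil list separates the treatments.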

How the data were processed

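The authors deposited signal intensities on a linear scale, one per probe set, made with MAS5 per the submitters' processing notes (version not given in the sources used here); biotin-labelled cRNA was made from 40 ng of total RNA per the labels' protocols. Every array had a 2% trimmed mean of 500, so no further scaling was applied, and the number of arrays, 4, limits the precision. Of 45101 probe sets, 64 controls, 932 with several genes and 9160 with no gene were left out, and the other 34945 list 1 gene, named by the platform table. A pseudocount of 23 (the median of all values, 92.9, divided by 4) was added before log2, which understates changes of weak signals. The comparison used limma 3.58.1 under R 4.3.3 (lmFit, eBayes with a trend, two-sided, Benjamini-Hochberg at 0.05, 2 residual and 3.13 prior degrees of freedom), fitted over all 12187 genes above the filter. In simulated data, with equal spread in both groups unlike these arrays, the fit called 0.6% of genes changed 2-fold and 38% changed 4-fold. The members and lists were chosen with earlier results of these data known. Every tested member is named with its signals; differences are given for members at least 2-fold apart with no overlap and for the 2 of each group with the highest mean signal, and others so described were picked after their values were seen. The background limit was set after the data were seen. Alternatives are given in the closing section. Figures were drawn with matplotlib 3.10.9.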

Additional observations from a re-analysis of the deposited data

How the results depend on the processing

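The number of genes called over the whole array was 0 and rose to 11 with specific probe sets only, 92 with the replicate block and 33 with array weights, and it ran from 6 to 4689 with 1 array left out. The correlation of deviations between same-numbered arrays was −0.04. With 2 arrays per group, this value cannot show whether the numbers pair the samples. The replicate block gave 0 members called. With 1 array left out, 0 to 23 members were called, and the lone array of a group is then assumed to vary like the others. The count of members at least 2-fold apart with no overlap was 6, and it was 5 with 4 times the pseudocount, where Mfap4 fell to 0.83. It was 3 with the 75th percentile filter, 3 with the mean of all probe sets, and 2 to 20 with 1 array left out. With 1 array left out the medians ran from 0.054 to 0.90 over all members, 0.093 to 0.89 for elastic fibre genes, −0.0034 to 0.78 for laminins and nidogens, −0.10 to 1.08 for proteoglycans, 0.02 to 1.12 for fibronectin and matricellular genes, and 0.19 to 0.62 for crosslinking and hydroxylating enzymes. The last was 0.64 with the 75th percentile filter, which leaves fewer genes.

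Centring on stellate cell and fibroblast markers, chosen after seeing the data, left 1 member at least 2-fold apart with no overlap. It gave medians of −0.089 over all members, −0.087 for elastic fibre genes, −0.090 for laminins and nidogens, −0.029 for proteoglycans and −0.21 for crosslinking enzymes. It turned Lamb1 to −0.39, Bgn to −0.32, Nid1 to −0.29, Fn1 to −0.17, Efemp1 to −0.087 and Dcn to −0.00067. With 1 array left out, Dcn ran from −0.31 to 1.38, Fn1 from −0.39 to 1.12, Efemp1 from −0.21 to 1.10, Lamb1 from −0.28 to 0.56, Nid1 from −0.20 to 0.69 and Bgn from −0.14 to 0.56, each negative without PBS replicate 1, and Lamb1 also without G-CSF replicate 2 (−0.21). Vcan, Lama5, Fmod, Ogn, Fbln5 and Mfap4 kept a positive difference in each alternative that gave them a value, with Vcan between 1.39 and 2.14. They were picked because both G-CSF arrays exceeded both PBS arrays, so leaving out 1 array could not turn their sign. The replicate block, array weights and the fit without a trend gave the same differences as the main fit. The 75th percentile filter left no value for Vcan, Lama5 and Mfap4, and the mean of all probe sets left none for Vcan. That mean took Lama5 from 1.84 to 0.66 and Ogn from 1.18 to 0.79, and specific probe sets took Lamb1 from 0.14 to 0.89. The cause of these changes was not tested.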

Other observations

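Receptors for these matrix proteins were followed in a list of 19 genes, of which 17 were tested. Their median difference was 0.34, and −0.18 from PBS replicate 2 alone, and none passed the adjusted limma threshold. Cd44, the hyaluronan receptor, and Itgb3, an integrin chain of platelets and activated cells, were higher by at least 2-fold without overlap (4.04% of all tested genes). Cd44 gave 1626 and 3149.8 on the PBS arrays against 5626 and 5596 on the G-CSF arrays, so the G-CSF arrays were nearly equal and above both PBS arrays (difference 1.30 ± 0.43, limma adjusted p = 0.988). From PBS replicate 2 alone the Cd44 difference was 0.83, under 2-fold. Itgb3 gave 237 and 142 on the PBS arrays against 1039 and 244 on the G-CSF arrays, a separation that rests on 1 G-CSF array. On that array, G-CSF replicate 1, the 8 measured platelet markers summed to 13616, against 4057 to 6930 on the others. Itgav, the integrin alpha chain that binds fibronectin and latent TGF-beta, gave 6890 and 13390.5 on the PBS arrays against 11510 and 12280 on the G-CSF arrays, with the G-CSF arrays between the PBS arrays.

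Of 13 tested genes of the TGF-beta axis, 8 had a G-CSF mean above the PBS mean, near the 55.9% of all tested genes. Their median was 0.09, near the 0.07 over all genes. Ccn2, connective tissue growth factor, was the 1 gene of that list at least 2-fold higher with no overlap (2982 and 7877 with PBS, 8851 and 12359.8 with G-CSF, difference 1.11 ± 0.54, limma adjusted p = 0.988). From PBS replicate 2 alone the Ccn2 difference was 0.41. Tgfbi, a matrix protein induced by TGF-beta, gave 6341 and 12955 on the PBS arrays against 18012 and 16505 on the G-CSF arrays, which also did not overlap. From PBS replicate 2 alone the Tgfbi difference was 0.41. Of the 13, 4 separated with G-CSF higher (18.6% of all tested genes) and 1, Smad4, with G-CSF lower (12.1%).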
